A study of Mus musculus with 24 samples.

Results

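The miR-130 and miR-301 family was read out by 4 TaqMan assays, mmu-miR-130a, mmu-miR-130b, mmu-miR-301a and mmu-miR-301b, chosen by assay name from the 584 miRNA assays of the series. All 4 lie on the first of the 2 array cards, fill 1 well each per card run and were detected in all 12 replicates. The series measured miRNAs by quantitative reverse-transcription PCR in 3 tumour cell lines and in bone marrow cells of mice, with 3 replicates per group. L-1210 is a lymphocytic leukaemia line that grows in suspension, M1 a myeloid leukaemia line that grows in suspension, and PYS a teratocarcinoma line of adherent, epithelial-like cells. CT-BM are primary bone marrow cells. No treatment, mouse strain or age is given for any group. Each tumour type was a single cell line, taken at passage 3, and nothing in the labels says that replicates came from separate cultures or animals. The p-values below therefore measure only the spread between these replicates, which may be technical. The design text describes marrow washed out of femurs and tibiae, whereas its growth protocol describes a suspension culture and the series title speaks of stem cells, so which state of the marrow was measured is not known.

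MicroRNAs guide repressor complexes to messenger RNAs mainly through the seed, the bases near their 5′ end, and miRNAs that share a seed form a family with overlapping targets. The members of the miR-130 and miR-301 family are spread over several genes: miR-301a lies inside Ska2, a gene of the mitotic spindle machinery, miR-130b and miR-301b are neighbours in a single host transcript, and miR-130a has a gene of its own. In mouse fibroblasts members of the family have been described as helping reprogramming to pluripotency through the homeobox gene Meox2.

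Mature sequences from RefSeq (mouse build GRCm38.p6) matched 3 of the 4 members, and the 3p entry was used because the assay names carry no arm. They are shown with miR-721, an assay of the same cards with the same seed, because they differ only downstream of it. Capitals mark the seed, bases 2 to 8.
mmu-miR-130a: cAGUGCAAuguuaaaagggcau
mmu-miR-130b: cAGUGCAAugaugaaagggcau
mmu-miR-301a: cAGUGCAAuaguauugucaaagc
mmu-miR-721: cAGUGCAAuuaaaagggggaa
The seed AGUGCAA occurs at that place in 7 of the 1679 mature mouse miRNA names of the RefSeq table, 4 of which have an assay here. Counted from the 5′ end, miR-130a and miR-130b are identical at 20 of 22 bases and differ by U11A and A13G, with the base of miR-130a given first. MiR-301a matches miR-130a at 12 of 22 bases and miR-130b at 11 of 22, and its first 9 bases are the same as theirs. MiR-130a and miR-130b are the same again downstream of those differences, and how far each assay reads the other was not tested.

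The mature miR-130a lies at chr2:84741116-84741137 on the minus strand, and its hairpin overlaps no other gene of the RefSeq table, with Ypel4 and Serping1 as the nearest coding genes. MiR-301a lies at chr11:87113054-87113076 on the plus strand within Ska2. MiR-721 lies at chr5:136375777-136375797 and miR-130b at chr16:17124071-17124092, both on the minus strand. The hairpins of Mir130b (chr16:17124061-17124142) and Mir301b (chr16:17124400-17124496), both on the minus strand and both within the gene 2610318N02Rik, are separated by 257 bases. They are printed because the results below turn on this pair, with the 7 bases of the family seed in capitals, which occur once in each.
Mir130b: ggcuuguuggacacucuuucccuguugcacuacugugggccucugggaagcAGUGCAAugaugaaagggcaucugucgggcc
Mir301b: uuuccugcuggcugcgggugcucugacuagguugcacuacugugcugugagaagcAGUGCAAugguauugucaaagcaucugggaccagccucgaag

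The unit throughout is the threshold cycle (Ct), the PCR cycle at which a well crosses the detection threshold, so that a later Ct means less template. Levels are negative delta Ct values, the mean Ct of 3 control RNAs (MammU6, snoRNA135, snoRNA202) of the same card run minus the Ct of the assay; 1 unit is a doubling if every cycle doubles the product, and a higher (less negative) value is more miRNA. Assays differ in efficiency, so a level of one assay is not set against that of another as a number of molecules. The table held 8969 wells, of which 48.3% did not amplify, and 367 to 380 wells per card run. On the members' card the 3 controls moved apart in L-1210 and PYS and more alike in M1. There the Ct of MammU6 minus its value in CT-BM was 0.740 cycles for L-1210, −2.17 for M1 and 0.567 for PYS. That of snoRNA135 was −1.11 cycles for L-1210, −2.23 for M1 and −1.86 for PYS. For snoRNA202 it was −2.64 cycles for L-1210, −2.67 for M1 and −1.53 for PYS. The choice of control therefore moves all miRNAs of a card at once in a comparison, and the 2 cards can move by different amounts. The differences below are given with their range over 7 scalings where it bears on the call: the 3 controls together, each alone, the 2 small nucleolar RNAs without MammU6, the mean of the assays detected in all replicates, and quantile normalization. In M1 replicate 2 the 4 MammU6 wells of the members' card spread over 3.23 cycles, and the values without that replicate are given with the M1 results. These are bulk samples, so fewer cells of a type and less RNA per cell cannot be told apart.

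MiR-130a was lower in every line than in marrow, by a wide margin. Its Ct was 30.98, 30.68 and 29.39 in L-1210 replicates 1 to 3, 29.998, 28.97 and 28.09 in M1, and 28.97, 27.72 and 28.92 in PYS, against 24.19, 24.78 and 24.96 in CT-BM. All 9 line replicates crossed the threshold later than all 3 marrow replicates. Against the controls, its level averaged −16.54 ± 0.56 for L-1210, −16.57 ± 0.68 for M1 and −14.67 ± 0.42 for PYS, and −9.83 ± 0.22 in CT-BM (SD, n = 3 each). The order was thus CT-BM, PYS, then L-1210 and M1, which overlapped.

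The other 3 members did not share this order. MiR-130b was at Ct 22.24, 21.93 and 21.46 in L-1210, 20.18, 19.96 and 19.44 in M1, and 21.22, 20.28 and 21.57 in PYS, against 23.45, 23.92 and 24.19 in CT-BM. Here the marrow replicates were the last to cross the threshold, and the M1 replicates the first. The level of miR-130b averaged −7.15 ± 0.31 in PYS, −7.41 ± 0.27 in M1, −8.07 ± 0.39 in L-1210 and −9.04 ± 0.25 in CT-BM (SD, n = 3 each). PYS and M1 overlapped, as did M1 and L-1210, and all 9 line replicates were above the marrow.

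MiR-301a, the Ska2 member, was at Ct 21.58, 20.90 and 20.42 in L-1210, 19.74, 19.94 and 18.94 in M1, and 18.25, 17.47 and 18.64 in PYS, against 21.47, 21.98 and 22.27 in CT-BM. Its level averaged −4.25 ± 0.23 in PYS, and −7.09 ± 0.52 in M1, −7.16 ± 0.57 in L-1210 and −7.10 ± 0.27 in CT-BM (SD, n = 3 each). Only PYS stood apart on this scale, and the other 3 groups overlapped.

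MiR-301b, the neighbour of miR-130b, was at Ct 21.52, 21.42 and 20.97 in L-1210, 20.55, 19.96 and 19.64 in M1, and 19.25, 18.42 and 19.20 in PYS, against 21.40, 21.97 and 21.99 in CT-BM. Its level averaged −5.09 ± 0.23 in PYS, −7.60 ± 0.19 in M1, −7.50 ± 0.31 in L-1210 and −6.97 ± 0.13 in CT-BM (SD, n = 3 each). PYS was highest, CT-BM next without overlap, and both leukaemia lines overlapped at the bottom. CT-BM and L-1210, neighbours in this order, did not pass the test below.

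**Figure D1:**
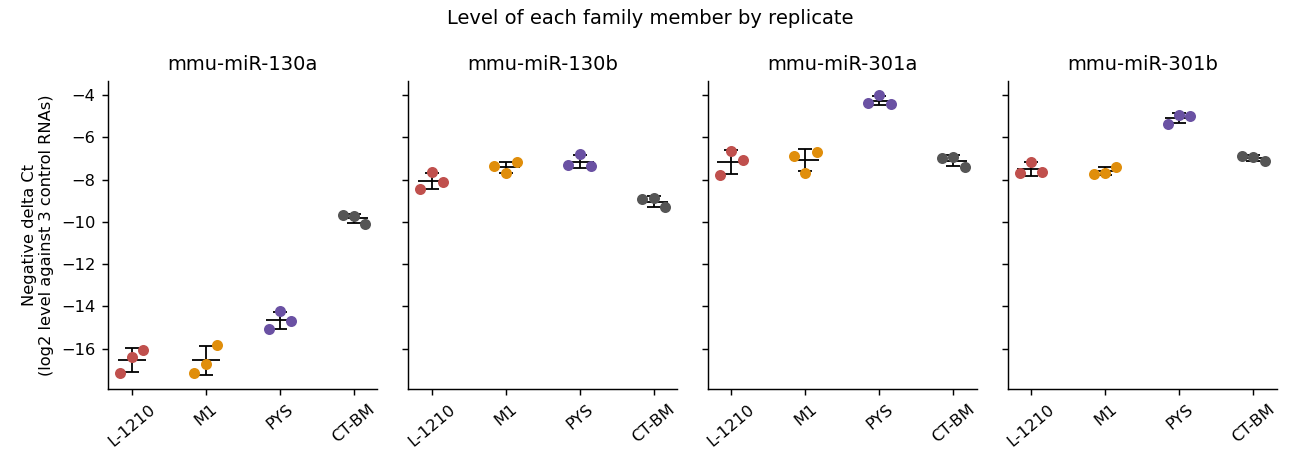
Level of each member (y axis, negative delta Ct, log2 scale) in the 3 replicates of L-1210, M1, PYS and CT-BM (points), with the mean and SD (bars). MiR-130a is near −9.83 in marrow and between −17.16 and −14.24 in the lines, whereas miR-301a and miR-301b stand apart in PYS.

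In L-1210 against CT-BM, 1 of the 4 members passed the test, miR-130a, which was 105-fold lower. An assay is called changed where limma's p, adjusted by Benjamini-Hochberg over all assays tested in the comparison, is under 0.05 and the difference is at least 2-fold. Of the 333 assays tested, 46.2% were called lower and 22.8% higher, so 1 lower call among 4 is not more than the table as a whole shows. MiR-130a differed by −6.71 ± 0.36 on the log2 scale (SE; limma adjusted p = 1.47e-11). Among the 251 assays with all replicates detected on both sides, 14 had a lower value. MiR-130b was 1.96-fold above the marrow, just under the fold limit, at 0.97 ± 0.28 (SE; limma adjusted p = 0.00494). MiR-301a differed by −0.06, with a 95% confidence interval of −0.76 to 0.63, and miR-301b by −0.52, with an interval of −1.06 to 0.01. Groups did not overlap for miR-130a, miR-130b and miR-301b, as for 79.3% of all assays tested.

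Over the 7 scalings miR-130a in L-1210 stayed lower and called in all 7, between −8.35 and −4.97. The direction of the others depended on the control: miR-130b ran between −0.67 with snoRNA202 alone and 2.71 with MammU6 alone, miR-301a between −1.70 and 1.68, and miR-301b between −2.16 and 1.22. MiR-130b also crossed the 2-fold line when L-1210 replicate 1 or 3, or CT-BM replicate 1 or 2, was left out, with values of 1.14, 1.00, 1.02 and 1.06. The median over all tested assays was −0.82 as reported, 1.05 with MammU6 alone and −2.47 with snoRNA202 alone. Relative to the median as reported, miR-130a was at −5.89, miR-130b at 1.79, miR-301a at 0.76 and miR-301b at 0.30. With only assays detected in all 12 replicates the median was −0.50.

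In M1 against CT-BM, 2 members passed: miR-130a was 106-fold lower and miR-130b 3.09-fold higher. Of 325 assays tested, 44.6% were called lower and 25.2% higher. MiR-130a differed by −6.73 ± 0.36 (SE; limma adjusted p = 1.24e-11), and 7 of the 235 assays with all replicates detected on both sides had a lower value. MiR-130b differed by 1.63 ± 0.28 (SE; limma adjusted p = 5.5e-05). MiR-301a differed by 0.01, with a 95% confidence interval of −0.69 to 0.71. MiR-301b differed by −0.62 (limma adjusted p = 0.0335), a 1.54-fold difference under the fold limit, with all 3 M1 replicates below all 3 marrow replicates. Groups did not overlap for miR-130a and miR-130b either, as for 79.7% of all assays tested.

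The 2 calls in M1 held under all 7 scalings, with miR-130a between −7.05 and −4.01 and miR-130b between 1.31 and 2.26. Without M1 replicate 2 they were −6.66 and 1.78. MiR-301a ran between −0.31 and 0.78 and miR-301b between −0.94 and 0.03 over the same scalings, and neither was called under any. The median over all assays tested was −0.59, relative to which miR-130a was at −6.14, miR-130b at 2.22, miR-301a at 0.60 and miR-301b at −0.03. Such medians take in assays of both cards and assays entered at the Ct limit. With only assays detected in all 12 replicates the median in M1 was 0.07, so these relative values depend on the assays taken in.

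In PYS against CT-BM all 4 members passed the test, miR-130a downward and the other 3 upward. Of 362 assays tested, 38.7% were called lower and 40.1% higher. MiR-130a was 28.6-fold lower, at −4.84 ± 0.36 (SE; limma adjusted p = 1.14e-09). MiR-301a was 7.17-fold higher, at 2.84 ± 0.33 (SE; limma adjusted p = 4.00e-07). MiR-130b and miR-301b, from the shared transcript, were each 3.69-fold higher, both at 1.88 (limma adjusted p = 8.19e-06 and 2.41e-06). Groups did not overlap for any of the 4, as for 89.5% of all assays tested.

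Under the 7 scalings miR-130a in PYS was lower and called in all, between −6.55 and −3.33, and miR-301a higher and called in all, between 1.92 and 4.35. MiR-130b and miR-301b were above the marrow in all 7 and called in 6. With snoRNA135 alone both were at 0.97, just under the 2-fold limit. The median over all tested assays was 0.08, against −0.84 with snoRNA135 alone and 1.84 with MammU6 alone. Relative to the median as reported, miR-130a was at −4.92, miR-301a at 2.76, and miR-130b and miR-301b both at 1.80. The median of the 4 members was −0.29 for L-1210, −0.31 for M1 and 1.88 for PYS against CT-BM. The 3 comparisons share the same marrow replicates, so their like values for miR-130a are not separate evidence.

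**Figure D2:**
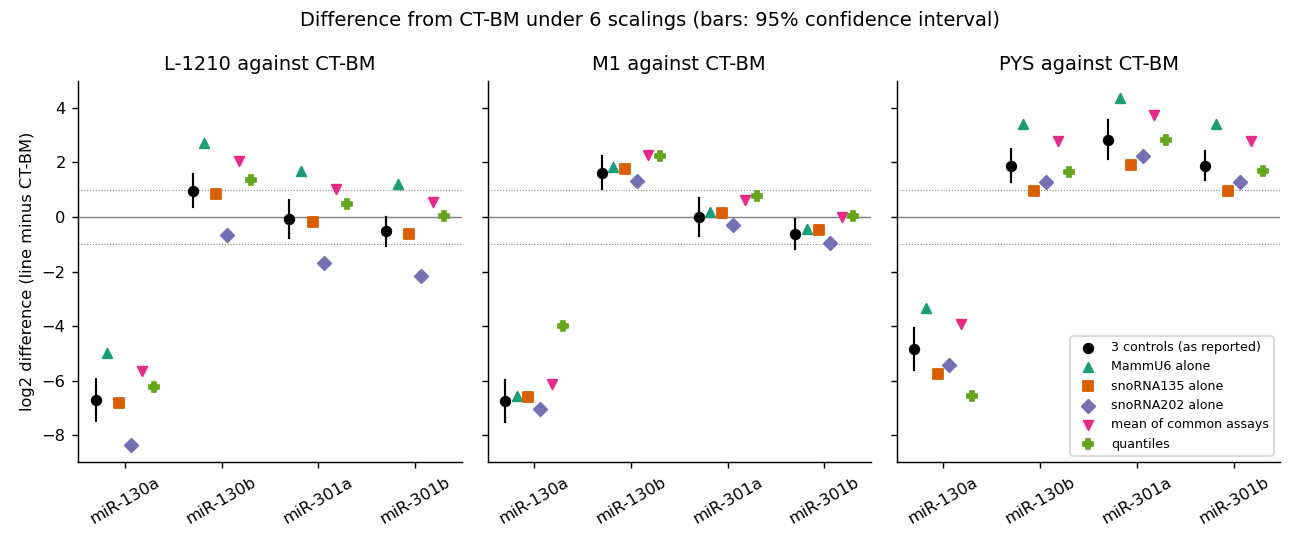
Log2 difference of each member (y axis, line minus CT-BM) in L-1210, M1 and PYS under 6 of the scalings; vertical bars are the 95% confidence interval of the reported fit and dotted lines mark 2-fold. MiR-130a is below −3.3 in every line under every scaling, whereas in L-1210 the other 3 members fall on both sides of 0.

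**Figure D3:**
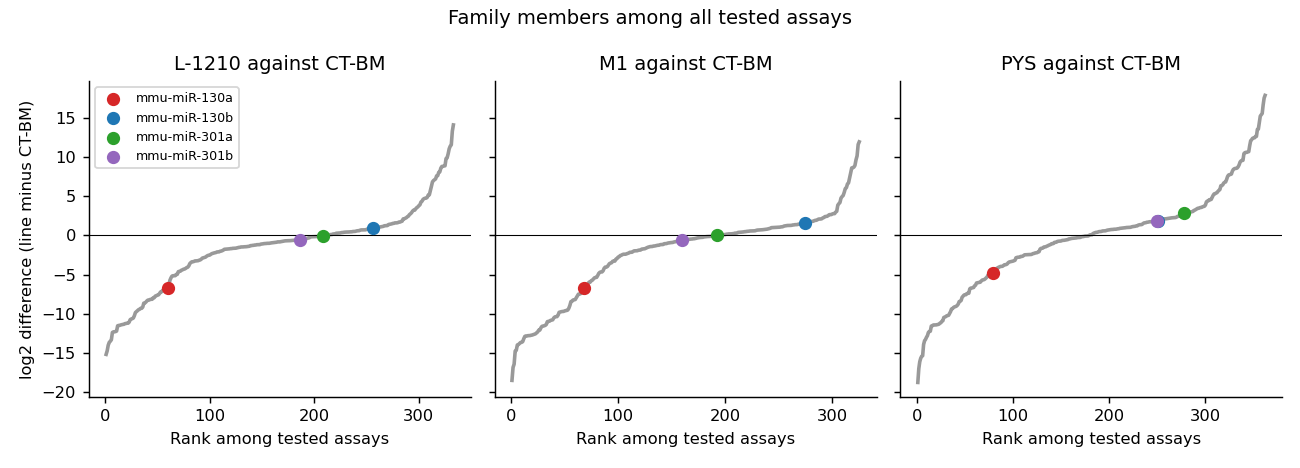
Log2 difference (y axis, line minus CT-BM) of all tested assays in rank order (grey), with assays not detected in a group entered at the Ct limit of 35, and the 4 members as coloured points. In PYS the point of miR-301b covers that of miR-130b, both at 1.88.

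Between the leukaemia lines no member passed, in L-1210 against M1. Of 306 assays tested, 26.1% were called higher and 31.0% lower. MiR-130b was 1.58-fold lower in L-1210, at −0.66 with a 95% confidence interval of −1.26 to −0.07 (limma adjusted p = 0.0488), and was the 1 member with an unadjusted p under 0.05. MiR-130a differed by 0.02, with an interval of −0.74 to 0.79, miR-301a by −0.07, with an interval of −0.77 to 0.62, and miR-301b by 0.10, with an interval of −0.44 to 0.64. The direction turned with the scaling for all 4 members, with ranges of −2.21 to 1.58 for miR-130a, −1.98 to 0.90 for miR-130b, −1.39 to 1.48 for miR-301a and −1.22 to 1.66 for miR-301b. The medians of the members and of all tested assays were −0.03 and −0.16.

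PYS stood above both leukaemia lines in 3 of the 4 members. Of 351 assays tested in PYS against L-1210, 46.2% were called higher and 27.9% lower. There miR-301a was 7.50-fold, miR-301b 5.30-fold and miR-130a 3.67-fold higher (limma adjusted p = 3.29e-07, 1.26e-07 and 0.000149). MiR-130b was at 0.92 ± 0.28 (SE; limma adjusted p = 0.00682), under the fold limit, and passed it when L-1210 replicate 2 or PYS replicate 3 was left out, at 1.12 and 1.01. Over the 7 scalings it ran between 0.11 with snoRNA135 alone and 1.96 with snoRNA202 alone, and was called in 2, the second being both snoRNAs at 1.03. Of 341 assays tested in PYS against M1, 46.0% were called higher and 27.3% lower. There miR-301a was 7.13-fold, miR-301b 5.68-fold and miR-130a 3.72-fold higher (limma adjusted p = 4.32e-07, 6.78e-08 and 0.000128). MiR-130b differed by 0.25 from M1, with a 95% confidence interval of −0.34 to 0.85 and a range over the scalings of −0.79 to 1.58.

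MiR-301a and miR-301b were called higher in PYS than in either leukaemia line under all 7 scalings, between 2.10 and 3.95 for miR-301a and between 1.60 and 3.45 for miR-301b against L-1210. Against M1 the ranges were 1.78 to 4.16 for miR-301a and 1.46 to 3.83 for miR-301b. The difference of miR-130a was less steady. With quantile normalization it was −0.33 in PYS against L-1210, not called, and −2.54 in PYS against M1, called in the reverse direction (limma adjusted p = 2.8e-05). With snoRNA135 alone it was 0.85 in PYS against M1, under the fold limit. The median of the 4 members was 2.14 against L-1210 and 2.20 against M1, where the medians of all tested assays were 0.70 and 0.67. Relative to those medians miR-301a was at 2.20 and 2.16, miR-301b at 1.70 and 1.84, and miR-130a at 1.17 and 1.23. With only assays detected in all 12 replicates the medians were 0.62 against L-1210 and 0.11 against M1.

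Differences between members of the same replicate and card need no control. The Ct of miR-130b minus that of miR-301b, the neighbours of the shared transcript, was 0.716, 0.513 and 0.494 cycles in L-1210, −0.368, 0.0065 and −0.198 in M1, and 1.97, 1.86 and 2.37 in PYS, against 2.05, 1.95 and 2.20 in CT-BM. PYS and CT-BM overlapped, whereas both leukaemia lines lay below all marrow replicates. The mean moved by −1.49 cycles in L-1210, by −2.25 in M1 and by −0.0005 in PYS relative to CT-BM (exact two-sided permutation p = 0.1, 0.1 and 1, where 0.1 is the smallest that 3 against 3 allows). At a doubling per cycle, this is a shift of miR-130b over miR-301b of 2.81-fold in L-1210 and 4.76-fold in M1 relative to marrow. L-1210 differed from M1 by 0.761 cycles without overlap (exact permutation p = 0.1).

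The near-identical pair, miR-130a minus miR-130b, gave 8.74, 8.75 and 7.93 cycles in L-1210, 9.82, 9.01 and 8.65 in M1, and 7.75, 7.45 and 7.35 in PYS, against 0.748, 0.862 and 0.772 in CT-BM. In marrow the assays of this pair thus crossed the threshold within 1 cycle of each other, and in the lines miR-130a came more than 7 cycles later. The mean difference relative to CT-BM was 7.68 cycles for L-1210, 8.36 for M1 and 6.72 for PYS, with no overlap (exact permutation p = 0.1 each, the smallest possible). MiR-130a minus miR-301a averaged 9.38 ± 0.40 cycles for L-1210, 9.48 ± 0.68 for M1 and 10.4 ± 0.3 for PYS, against 2.74 ± 0.06 in CT-BM (SD, n = 3 each).

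The Ct of miR-301a minus that of miR-301b, the members with the highest correlation below, averaged −0.336 ± 0.344 cycles for L-1210, −0.508 ± 0.429 for M1 and −0.836 ± 0.239 for PYS, against 0.122 ± 0.139 in CT-BM (SD, n = 3 each). L-1210 overlapped the marrow (exact permutation p = 0.2), and M1 and PYS did not (exact permutation p = 0.1 each). Of the 24 tests on 4 pairs of members and 6 comparisons, none can go below 0.1, and adjustment over them could only raise it.

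**Figure D4:**
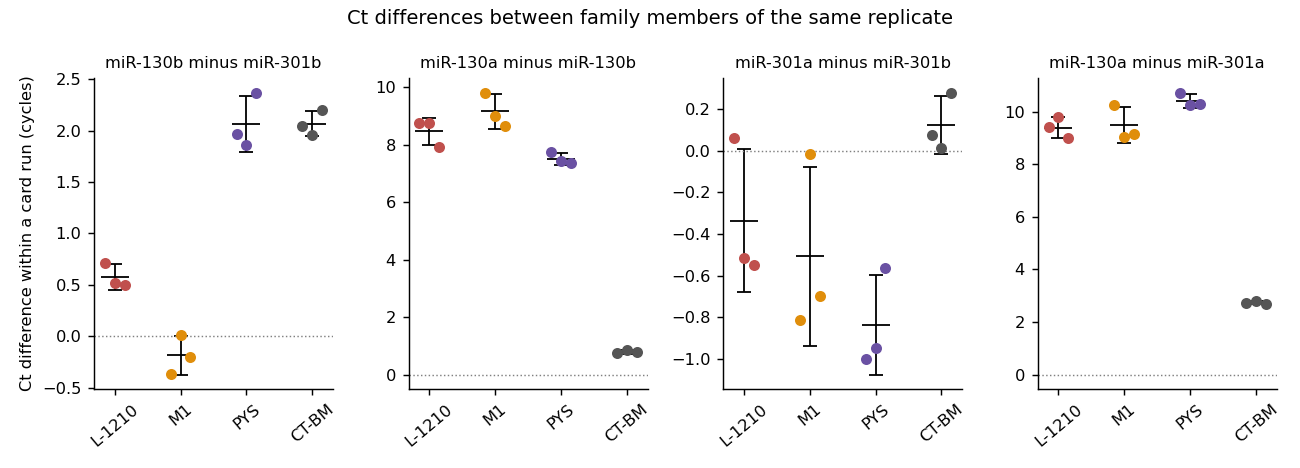
Ct difference between members of the same replicate (y axis, cycles; points are replicates, bars the mean and SD) in L-1210, M1, PYS and CT-BM for 4 pairs. MiR-130b minus miR-301b is near 2.07 in PYS and CT-BM and below 0.8 in both leukaemia lines, and miR-130a minus miR-130b is under 1 only in CT-BM.

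Across the 12 replicates the members' levels were compared as a description; replicates of a group and the controls they share make these points dependent. MiR-301a and miR-301b, which lie on different chromosomes, had the highest correlation of the 6 pairs (Pearson r = 0.957), above that of the neighbours miR-130b and miR-301b (r = 0.426). MiR-130a ran against miR-130b (r = −0.683), and was near 0 with miR-301a (r = −0.0206). Among the 176 mouse-named assays detected in all 12 replicates, the most alike to miR-130a were miR-210 (r = 0.977), miR-218 (0.974) and miR-801 (0.944), and to miR-130b they were miR-19b (0.952), miR-92a (0.949) and miR-20b (0.932). For miR-301a they were miR-301b (0.957), miR-324-5p (0.953) and miR-148b (0.947), and for miR-301b they were miR-103 (0.968), miR-182 (0.961) and miR-301a (0.957).

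MiR-721, the further assay with the family seed, lies on the second card and was present in 2 replicates each of L-1210 and M1. Its levels were −18.50 and −15.70 in L-1210, −17.18 and −18.47 in M1, and −15.17, −16.30 and −14.87 in PYS, against −13.18, −13.37 and −12.38 in CT-BM. Marrow was above all line replicates, as for miR-130a, where 79.3% to 89.5% of all assays tested per line did not overlap it. The differences from CT-BM were −4.12 ± 0.67 for L-1210, −4.85 ± 0.67 for M1 and −2.47 ± 0.60 for PYS (SE; limma adjusted p = 5.34e-05, 1.01e-05 and 0.00144), all called lower. Over the 7 scalings the difference in L-1210 ran between −5.90 and −1.70, that in M1 between −5.65 and −0.95 and that in PYS between −3.64 and −0.44, each called lower in 6 of 7. The call was lost with quantile normalization in both leukaemia lines and with MammU6 alone in PYS. Of these 5 assays, the 4 members and miR-721, miR-130a and miR-721 were called lower in all 3 lines as reported, as were 25.1% of the 315 assays tested in all 3.

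The opposite arm of the miR-130b hairpin, miR-130b*, was higher in the lines than in marrow. Its levels were −9.24, −9.18 and −9.84 in L-1210, −8.03, −8.55 and −8.51 in M1, and −8.83, −8.79 and −8.92 in PYS, against −10.96, −10.86 and −11.27 in CT-BM. All 9 line replicates were above the marrow, where 79.3% to 89.5% of all assays tested per line did not overlap it. MiR-130b* was called higher in all 3 lines, as were 7.94% of the 315 assays tested in all 3. It was 3.06-fold higher in L-1210, 6.35-fold in M1 and 4.53-fold in PYS (limma adjusted p = 3.15e-05, 6.95e-08 and 6.87e-07). In M1 and PYS the call held under all 7 scalings, between 1.90 and 3.71 in M1 and, in PYS, down to 1.00 with snoRNA135 alone. In L-1210 it held under 5, and the difference was −0.04 with snoRNA202 alone and 0.60 with both snoRNAs. In L-1210 against M1 it was 2.08-fold lower (limma adjusted p = 0.00206), called under 4 of 7 scalings. The arms sit on different cards, each with its own controls.

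MiRNAs whose seed overlaps the family's with an offset of 1 base were a fixed list of 5, shown here by a member of each kind because the seeds differ only by that shift. MiR-148a lies at chr6:51269829-51269850 on the minus strand, and the miR-19b copy of Mir19b-1 at chr14:115044358-115044380 on the plus strand.
mmu-miR-148a: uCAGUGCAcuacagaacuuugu
mmu-miR-19b: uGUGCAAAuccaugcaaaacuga
MiR-148a, described as a repressor of a DNA methyltransferase in human cells, was not detected in L-1210 or M1. With undetected wells at the Ct limit of 35 it was at least 1442-fold lower in L-1210 than in CT-BM, the smallest value over the 7 scalings, with MammU6 alone. In M1 the smallest was 4500.3-fold lower, with quantile normalization. That scaling changes the values entered at the limit, so its fold is not a strict bound. MiR-148a was 5.47-fold lower in PYS (−0.94 and not called with MammU6 alone). MiR-152 was 2.68-fold lower in L-1210 (0.32 and not called with MammU6 alone, −0.35 and not called with the mean of common assays). It was not detected in M1, where its smallest value over the 7 scalings was 3228-fold lower, again with quantile normalization. In PYS miR-152 was at 0.73 ± 0.27 (SE; limma adjusted p = 0.0208), under the fold limit. In PYS it ran between −0.19 and 2.24 over the 7 scalings and was called higher under 2. MiR-148b was 4.45-fold higher in PYS, called under all 7 scalings, and was at 0.44 in L-1210 and 0.59 in M1, neither called as reported. Over the 7 scalings it ran between −1.19 and 2.19 in L-1210, called higher under 3 and lower under 1. In M1 it was called higher under 2. MiR-19a and miR-19b, described as the main tumour-promoting members of the miR-17-92 cluster in mouse B-cell lymphoma, were called higher in M1 (2.46-fold and 2.70-fold) and PYS (2.64-fold and 3.36-fold), and were at 0.11 and 0.40 in L-1210. In L-1210 they ran between −1.52 and 1.86 and between −1.24 and 2.14 over the 7 scalings. Each was called higher there under 3 scalings and lower under 1. In PYS their lowest values were 0.48 and 0.83 with snoRNA135 alone, and they were called under 4 and 5 of the 7 scalings. All these are differences from CT-BM, so 0 of 5 rose and 2 fell in L-1210, 2 rose and 2 fell in M1, and 3 rose and 1 fell in PYS as reported. Over all assays tested 22.8% were called higher and 46.2% lower in L-1210, 25.2% and 44.6% in M1, and 40.1% and 38.7% in PYS.

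Marker miRNAs of other cell types differed between the groups too. Their summed levels are given with the 3 controls together only. The other scalings were not run on them, so small differences between groups may depend on the control. The blood markers miR-142-3p, miR-142-5p, miR-223 and miR-150 were detected in every replicate of L-1210, M1 and CT-BM. In every PYS replicate 3 of 4 were detected, all but miR-142-5p. The summed level of the blood markers was −5.06 to −2.91 in L-1210, −2.11 to −1.89 in M1 and −11.4 to −11.0 in PYS, against 1.49 to 1.67 in CT-BM (log2). All 9 embryonic stem cell markers of the miR-290 and miR-302 clusters were detected in every PYS replicate, with a summed level of −0.858 to −0.343, against 2 of 9 in CT-BM, at −13.5 to −13.0. In L-1210 and M1 3 of 9 each were detected in every replicate, at −19.0 to −17.6 and −21.1 to −18.4. The stromal markers miR-143, miR-145, miR-199a-3p and miR-214 were all detected in CT-BM, at −6.29 to −5.70, whereas 1 of 4 was in L-1210 and 2 of 4 each in M1 and PYS. The erythroid markers miR-451 and miR-486 were both detected in CT-BM, 1 of 2 in every PYS replicate, and neither in every replicate of L-1210 or M1. Both arms of miR-126, a marker of endothelial cells and megakaryocytes, were detected everywhere, with a summed level of −5.08 to −4.58 in L-1210, −4.54 to −4.26 in M1 and −5.26 to −4.77 in PYS, against −1.84 to −1.69 in CT-BM. Epithelial markers were detected in 5 of 7 in L-1210, 6 in M1, 5 in PYS and 7 in CT-BM, with a summed level of −8.17 to −8.02 in L-1210, −8.59 to −8.03 in M1 and −8.65 to −8.34 in PYS, against −6.98 to −6.56 in CT-BM. The part of these cell types in the higher miR-130a of marrow was not tested.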

How the data were processed

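Per the file headers, the 1 deposited table gives a Ct for each well and a Ct Avg, the mean over an assay's wells on a card; these are PCR cycles that the authors left unnormalized. Per the labels, total RNA was extracted with a mirVana kit, reverse transcribed, preamplified and run for 40 cycles on TaqMan cards A and B on a 7900HT instrument. Software versions and a detection limit are not given in the sources used here. All 7000 Ct Avg values matched the mean of the wells to within 0.001 cycles when undetermined wells were entered at 40 cycles, and 0 columns of values were left unused.

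Wells were read with Python 3.11.15 and pandas 2.3.3. In R, a well that was undetermined or above the Ct limit of 35 was entered at that limit as not detected. Wells of an assay on a card were then averaged. Delta Ct used the mean of MammU6, snoRNA135 and snoRNA202, the controls of the design text. A linear model of negative delta Ct with 4 group means over 12 replicates was fitted by limma 3.58.1 (lmFit, eBayes) under R 4.3.3. The fit took in all miRNA assays, so undetected assays, entered at the Ct limit, also shaped the shared estimate of spread. Tested were assays detected in every replicate of at least 1 group compared, with Benjamini-Hochberg adjustment over all of these. Where no replicate of a group was detected, the fold is a bound at the Ct limit, except with quantile normalization. An assay absent from a replicate was left out of that replicate. Pairs of members were compared with exact permutation tests (SciPy 1.17.1); figures used matplotlib 3.10.9. The fit was tested on simulated data. The number of replicates limits the precision, and read depth does not apply. The labels' titles gave the groups.

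Alternatives were other scalings, Ct limits of 32 and 40, other filters, a robust and trended eBayes, fitting just the compared groups, dropping the fold minimum, a replicate block and leaving out each replicate. The rule named all 4 members, assays with the same seed, the miR-148, miR-152 and miR-19 families, opposite arms and the 3 assays most alike to each member. Members and lists were chosen with earlier results of these data known. Sequences came from RefSeq GRCm38.p6; gene neighbours came from a RefSeq table of the same assembly.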

Additional observations from a re-analysis of the deposited data

How the results depend on the processing

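The 480 member differences came from 26 alternatives. Of them, 407 kept direction and call, 3 lost the call, 25 gained it and 45 turned direction. Each member's difference was the same with other Ct limits, the compared groups alone, robust and trended eBayes, no fold minimum or a replicate block. Those alternatives could change only the call, so the 407 includes values whose direction could not turn. Members called in L-1210 against CT-BM numbered 1 as reported, 4 with MammU6 alone, 3 with snoRNA202 alone or the mean of common assays, 2 with both snoRNAs, quantile normalization, no fold minimum or the 3 controls and U87 (added after seeing the data, as was the median of MammU6 wells), and 1 to 2 leaving out a replicate. In PYS against CT-BM they numbered 2 with snoRNA135 alone instead of 4. In L-1210 against M1 they numbered 3 with MammU6 alone, 4 with snoRNA202 alone, and 1 with both snoRNAs, quantile normalization or no fold minimum, instead of 0. The cause was not tested.

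All assays called numbered 413, 416 and 293 without a filter, in L-1210 and M1 against CT-BM and L-1210 against M1, against 230, 227 and 175 as reported. With only assays detected in all 12 replicates they numbered 100, 104, 124, 87, 120 and 115 in L-1210, M1 and PYS against CT-BM, L-1210 against M1, and PYS against L-1210 and M1, where fewer assays were tested. The share of calls that were higher was 33% as reported, 63.7% with MammU6 alone and 14.8% with snoRNA202 alone in L-1210 against CT-BM. For PYS against CT-BM these shares were 50.9%, 66% and 43%, and the lowest was 37.7% with snoRNA135 alone. In M1 against CT-BM it was 36.1% as reported, 24.8% with snoRNA202 alone and 57.3% with quantiles. In L-1210 against M1 it was 45.7%, 78.6% with MammU6 alone and 25.5% with snoRNA202 alone. It was 62.3% in PYS against L-1210 and 62.8% in PYS against M1. In the same order it was 75% and 60.6% with snoRNA202 alone, 59.2% and 76.1% with MammU6 alone, and 46.6% and 47% with quantiles.

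Directions turned as follows. In L-1210 against CT-BM, miR-130b was −0.67 with snoRNA202 alone; miR-301a was 1.68 for MammU6 alone, 1.01 for common assays, 0.48 with quantiles, 0.12 with U87 added and −0.33 to 0.24 leaving out a replicate; miR-301b was 1.22, 0.55 and 0.035 with MammU6 alone, common assays and quantiles. In M1 against CT-BM, miR-301a was −0.31 with snoRNA202 alone, −0.0851 with both snoRNAs, −0.0238 with the median of MammU6 wells and −0.19 to 0.30 leaving out a replicate, and miR-301b was 0.00426 with common assays and 0.0313 with quantiles. In L-1210 against M1, miR-130a was −0.22, −1.29, −0.76, −2.21 and −0.0313 with snoRNA135, snoRNA202, both, quantiles and U87 added, and −0.27 to 0.39 leaving out a replicate. There miR-130b was 0.90 with MammU6 alone, miR-301a 1.48 with MammU6 alone, 0.38 with common assays and −0.37 to 0.23 leaving out a replicate, and miR-301b −0.14, −1.22 and −0.68 with snoRNA135, snoRNA202 and both, and −0.0772 to 0.21 leaving out a replicate. MiR-130a was −0.33 in PYS against L-1210 and −2.54 in PYS against M1 with quantiles. MiR-130b in PYS against M1 was −0.79, −0.0188, −0.41, −0.58 and −0.10 with snoRNA135, snoRNA202, both, quantiles and U87 added.

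With the replicate number as a replicate block, the counts of members called stayed at 1, 2 and 4 in L-1210, M1 and PYS against CT-BM. Deviations of same-numbered replicates from their group means correlated with r between −0.453 and 0.334 over 187 assays. Each mean rests on 3 replicates, so these values cannot tell whether the numbers pair the replicates.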
